A study of Mus musculus with 9 samples.

Results

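The genes described here are 38 genes of glucose uptake, glycolysis, lactate handling and the hypoxia response, measured in neutrophils sorted from skin lesions and from the skin around them. They are 2 glucose transporters, 3 hexokinases, 9 genes of upper glycolysis, 5 of lower glycolysis, 4 of lactate and pyruvate handling, 5 of the oxygen sensor and 10 targets of hypoxia-inducible factor (HIF). Members were chosen by gene name as printed on the array, and all 38 were found among 34797 gene names, through 68 of 55681 probes. The array uses old symbols for Pkm2 and Ero1l, which are Pkm and Ero1a in RefSeq.

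All mice were FVB/N and all had been treated with the carcinogen DMBA, in weeks 6 and 13 of age, and repeatedly with PMA, a phorbol ester, from week 1 until week 18 to 20. Gr-1bright neutrophils, cells with a strong signal for a surface marker of granulocytes, were sorted from skin next to papillomas (papilloma skin, 2 arrays), skin next to tumors (tumor skin, 2 arrays), papillomas (3 arrays) and tumors (2 arrays). Papillomas are benign growths, and in this model some go on to invasive carcinoma. Tissue of several mice was pooled before sorting, so arrays were the replicates and single animals were not measured. The controls were skin of mice given the same treatment, and no untreated skin was used. Per the methods, lesions were digested with collagenase IV, dispase II and DNase I, and the surrounding skin with collagenase IV only. Each comparison of lesion with skin is thus also one of digestion, and the part of digestion was not tested. Values are 1 log2 value per probe and array from the authors' table, a gene is the median of its probes, and a gene was called past the threshold where limma gave a p of at most 0.05 after Benjamini-Hochberg adjustment over all 34797 genes.

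Neutrophils make most of their ATP by glycolysis, the chain of reactions that splits glucose into pyruvate, which lactate dehydrogenase turns into lactate when oxygen or mitochondria are short. HIF is a pair of an oxygen-labile alpha subunit (Hif1a or Epas1) and a stable partner (Arnt). Prolyl hydroxylases (Egln genes) mark the alpha subunit for destruction while oxygen is present, and in hypoxia the spared HIF binds short DNA motifs and switches on glucose transporters, glycolytic enzymes and its own hydroxylase Egln3. HIF is mostly set by protein stability, so its own messenger level need not follow oxygen.

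Several arrays stood apart. Spike-in signal rose with spike-in amount at a slope of 1.04 to 1.06 on 6 arrays, against 0.678 for papilloma skin 1, 0.876 for tumor skin 1 and 0.894 for tumor 1. On those 3 arrays at least 90.7% of the spots that are not controls were well above background, against 44.2% to 64.2% on the others. The table column named papilloma skin 1 had a rank correlation over probes of 0.587 with its own scanner file and 0.923 with that of tumor 2, and the column named tumor 1 had 0.825 with its own and 0.946 with that of tumor 2. Papilloma 2 and papilloma 3 were each nearest to the other's scanner file, at 0.981 and 0.958. Main counts are therefore given also without the columns papilloma skin 1 and tumor 1, and from the scanner files. Without those columns papilloma skin and tumor had 1 array each, so the spread came from the other groups. The table may already have had its slide effect removed, and a test run afterwards does not count the degrees of freedom this takes, so counts with slide as a term are given too. Ly6g, Lcn2 and Retnlg, of 8 neutrophil markers, fell in lesions, and the summed level of that list was 19.68 to 20.17 on the log2 scale on every array.

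Glycolysis and hypoxia response genes were higher in lesion neutrophils at both stages. In papilloma against papilloma skin, 24 of 38 members rose and none fell, with a median log2 fold change of 1.28, while 4.8% of all genes rose and 2.75% fell. In tumor against tumor skin, 23 of 38 rose and none fell, with a median of 1.41, against 6.17% of all genes that rose and 4.22% that fell. Over both stages together, 26 rose and none fell, with a median of 1.35, against 9.84% and 6.49% of all genes. The median over all genes was -0.010, -0.013 and -0.018 in these comparisons. Of the 38 members, 25 were higher on each of the 5 lesion arrays than on any of the 4 skin arrays, an order that 7.78% of all genes had.

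**Figure D1:**
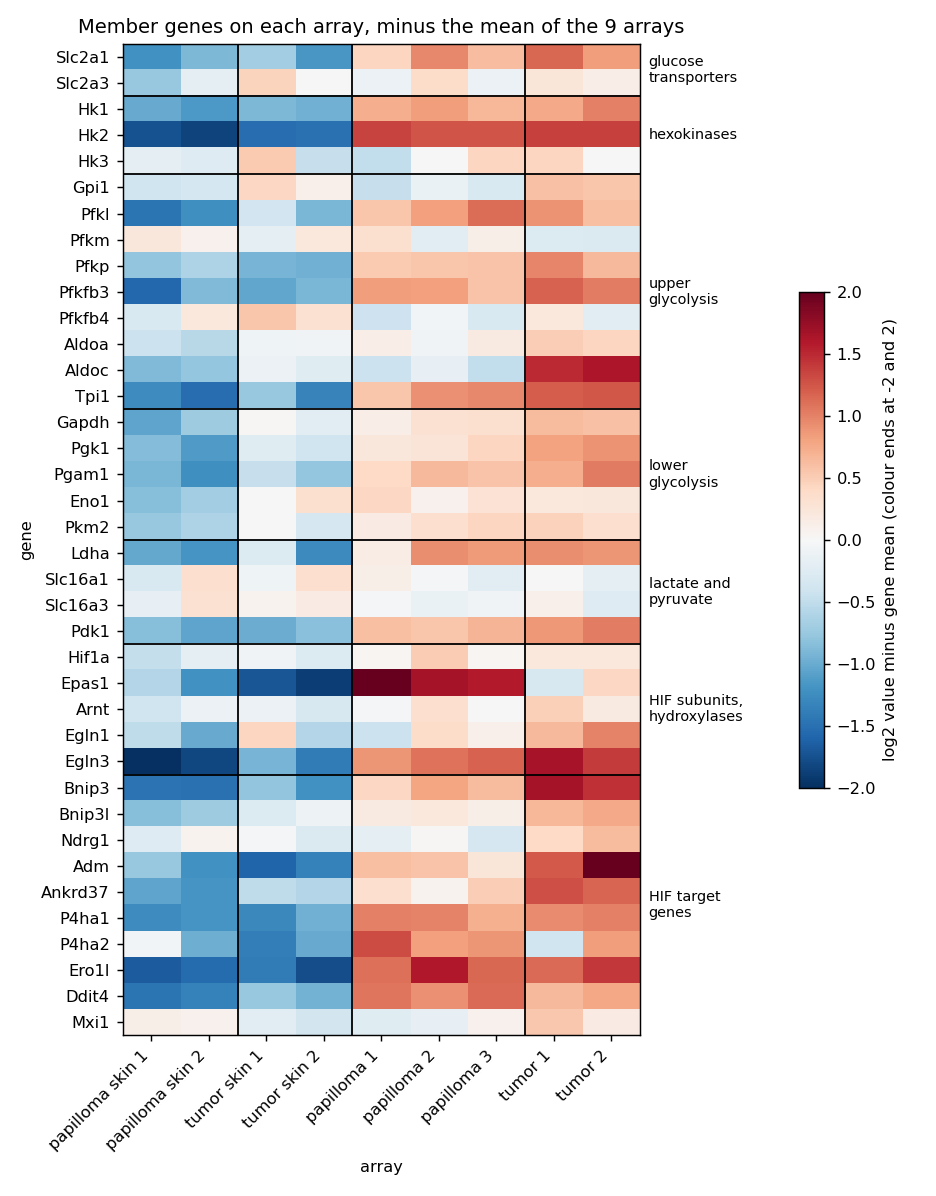
Log2 value of each of the 38 genes (rows, in pathway order) on each of the 9 arrays (columns), minus the mean of that gene over the 9 arrays, with red above and blue below the mean. The skin columns on the left are mostly blue and the lesion columns on the right mostly red, apart from rows such as Slc2a3, Hk3, Pfkm, Pfkfb4, Slc16a1, Slc16a3 and Mxi1.

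The sign of these calls was the same in the sources named next, but their number was not. Without the columns papilloma skin 1 and tumor 1, 19 members rose in papilloma, 20 in tumor and 25 in lesions of both stages, against 1.9%, 3.15% and 7.58% of all genes. With slide as a term the counts were 19, 12 and 24, against 1.7%, 0.468% and 5.24%. From the scanner files, quantile normalized and adjusted for slide with ComBat, they were 24, 4 and 24, against 9.81%, 0.454% and 5.46% of all genes. With slide as a term in limma on the scanner values no member and no gene passed, although 20, 9 and 20 members had an unadjusted p of at most 0.05, against 11.9%, 2.45% and 8.27% of all genes. The 6 arrays of full spike-in range were papilloma skin 2, tumor skin 2, tumor 2 and papilloma 1, 2 and 3. Tumor against tumor skin there set 1 array against 1, and all spread came from papilloma. No test is therefore read from these arrays, and only effect sizes are given. All 26 members called in lesions of both stages kept their sign on those 6 arrays, where the median over the 38 was 1.64.

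**Figure D2:**
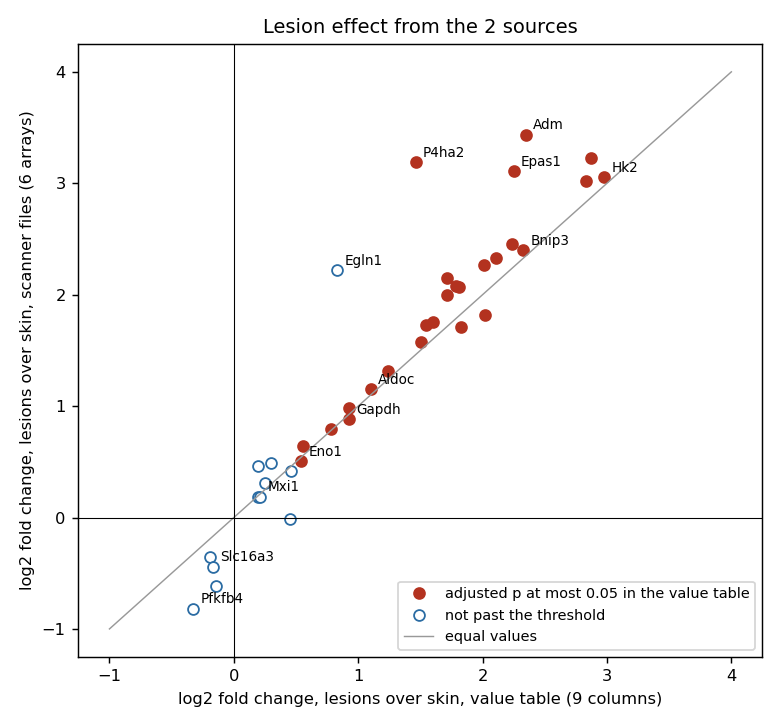
Log2 fold change of lesions over skin for each of the 38 genes in the authors' table (x axis, 9 columns) and in scanner values of the 6 arrays of full spike-in range (y axis), with filled points for the 26 genes past the threshold in the table. The 6 arrays were papilloma skin 2, tumor skin 2, tumor 2 and papilloma 1, 2 and 3. All filled points lie above 0 on both axes, with Hk2 at 2.98 and 3.05 and Pfkfb4, an open point, at -0.33 and -0.82.

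Sorted fractions can hold other cells, and their markers moved as well. Of 10 keratinocyte genes, 4 rose in lesions (Krt14, Krt16, Krt6a and Krt6b), and the summed log2 level of the list was 12.09 to 13.09 on the skin arrays, 13.54 to 14.71 on papilloma arrays and 14.02 to 15.74 on tumor arrays. Of 6 eosinophil genes 3 fell (Ccr3, Ear2 and Il5ra) and 1 rose (Siglec5), with a summed level of 12.55 to 13.69 in skin and 10.88 to 11.76 in lesions. Of 8 macrophage genes 2 rose and 1 fell, with a summed level of 17.56 to 18.03 on all arrays. Of 6 fibroblast genes Col1a1 and Col3a1 rose and Dcn fell, and their summed level was 13.56 to 14.64 in papilloma skin, 15.04 to 15.52 in papilloma, 12.95 to 13.08 in tumor skin and 12.27 to 13.81 in tumor. Of 5 T cell genes Cd3d fell, with a summed level of 12.15 to 12.54 in skin and 11.52 to 11.82 in lesions. Of 4 red blood cell genes Slc4a1 rose, with a summed level of 15.65 to 16.44 in papilloma skin, 13.02 to 14.33 in papilloma, 15.55 to 16.23 in tumor skin and 18.27 to 18.80 in tumor. The summed level of 4 mast cell genes was 10.06 to 11.34 over all arrays. Their part in the rise of the glycolysis genes was not tested. In RNA pooled from many cells, a larger share of cells that express a gene and more RNA per cell cannot be told apart.

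Glucose enters the cell through transporters of the SLC2A family. Slc2a1 (GLUT1), a transporter that HIF is known to induce, was at 13.80 and 14.12 in papilloma skin, 14.32 and 13.85 in tumor skin, 15.44, 15.98 and 15.64 in papilloma, and 16.17 and 15.85 in tumor. All 5 lesion arrays were above all 4 skin arrays. It rose 3.3-fold in papilloma (log2 1.72 ± 0.22 SE, adjusted p = 0.0036) and 3.79-fold in tumor (1.92 ± 0.24, adjusted p = 0.004). Slc2a3 (GLUT3), the high-affinity transporter of the family, was 13.22 to 14.42 in skin and 13.86 to 14.36 in lesions, so the groups overlapped. Its log2 fold change was 0.52 in papilloma (95% interval -0.02 to 1.07) and -0.03 in tumor (-0.63 to 0.57). The change of Slc2a1 exceeded that of Slc2a3 on the same arrays by 1.56 log2 units (exact two-sided permutation test of 5 lesion against 4 skin arrays, p = 0.0159, the smallest this design allows).

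That test was run for 14 pairs of genes of the same family, and p-values adjusted over the 14 pairs are given from here on. For Slc2a1 and Slc2a3 the adjusted p was 0.025. Of pairs not taken up below, Hk2 gained 1.17 log2 units on Hk1 and Epas1 1.97 on Hif1a (exact permutation p = 0.0159 and 0.0317, 0.025 and 0.044 over the 14 pairs). Both sizes depend on the probe, since the probes of Hk1 disagreed and the brightest probe of Epas1 was lower in lesions. The differences between Aldoc and Aldoa (0.39), P4ha1 and P4ha2 (0.56) and Slc16a1 and Slc16a3 (0.030) were not past the threshold (exact permutation p = 0.492, 0.27 and 0.762). The test pools the stages, and Aldoc minus Aldoa was -0.11 at the papilloma stage and 1.19 at the tumor stage.

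Hexokinases trap glucose in the cell as glucose 6-phosphate. Hk2, the inducible form, was at 9.60 and 9.50 in papilloma skin, 9.82 and 9.86 in tumor skin, 12.69, 12.60 and 12.60 in papilloma, and 12.71 and 12.71 in tumor. The skin arrays and the lesion arrays formed separate ranges with little spread inside them. The rise was 8.46-fold in papilloma (log2 3.08 ± 0.11, adjusted p = 4.9e-05) and 7.33-fold in tumor (2.87 ± 0.12, adjusted p = 0.00018), the former the largest log2 fold change of any member in papilloma. Over the alternatives run, its log2 fold change in lesions of both stages was 2.92 to 3.21.

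Hk1, the housekeeping form, was 11.22 to 11.47 on skin arrays and 13.03 to 13.37 on lesion arrays, 3.52-fold higher in papilloma (1.82 ± 0.13, adjusted p = 0.0003) and 3.49-fold higher in tumor (1.81 ± 0.14, adjusted p = 0.00075). Its 3 probes disagreed. The brightest had differences of -0.22 and 0.22 at the 2 stages, while the others had 1.82 and 1.81, and 1.11 and 1.43, so the rise of Hk1 belongs to part of its probes. Hk3, the hexokinase typical of myeloid cells, was 11.60 to 12.57 in skin and 11.56 to 12.49 in lesions, with a log2 fold change of 0.19 at both stages (-0.59 to 0.97 in papilloma, -0.66 to 1.05 in tumor). Within arrays, Hk2 gained 2.80 log2 units on Hk3 and Hk1 gained 1.63 (exact permutation p = 0.0159 each, 0.025 over the 14 pairs).

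**Figure D3:**
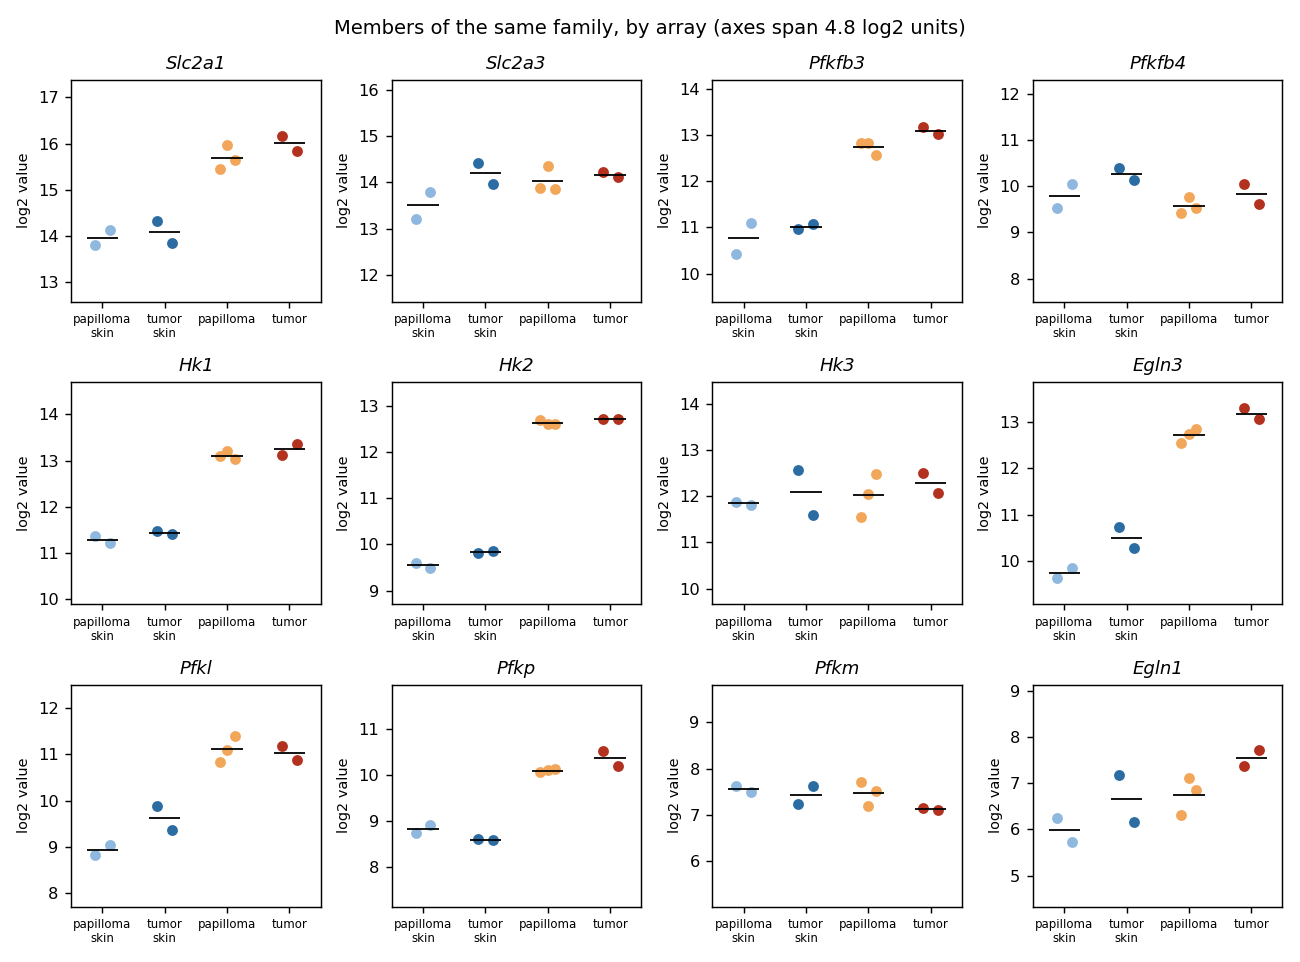
Log2 value on each array (points) and group mean (bars) of 12 genes from 5 families of isoenzymes, by group, with 2 arrays for papilloma skin, tumor skin and tumor and 3 for papilloma, and with every axis spanning the same number of log2 units. Slc2a1, Hk1, Hk2, Pfkl, Pfkp, Pfkfb3 and Egln3 show separate ranges for skin and lesion, while Slc2a3, Hk3, Pfkm, Pfkfb4 and Egln1 overlap.

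The next steps run from glucose 6-phosphate to the splitting of the hexose. Gpi1, which makes fructose 6-phosphate, was 15.08 to 15.89 in skin and 15.01 to 16.07 in lesions and did not pass in either lesion comparison (0.07 and 0.32 log2 units). Phosphofructokinase, the committed and most regulated step, has a liver, a platelet and a muscle subunit gene. Pfkl (liver) was at 8.82 and 9.05 in papilloma skin, 9.89 and 9.36 in tumor skin, 10.83, 11.09 and 11.40 in papilloma, and 11.18 and 10.87 in tumor. It rose 4.51-fold in papilloma (2.17 ± 0.22, adjusted p = 0.0014) and 2.64-fold in tumor (1.40 ± 0.24, adjusted p = 0.012). Pfkp (platelet) was 8.58 to 8.93 in skin and 10.06 to 10.52 in lesions and rose 2.39-fold and 3.38-fold (adjusted p = 0.0018 and 0.001). Pfkm (muscle) was 7.23 to 7.63 in skin and 7.11 to 7.72 in lesions, with log2 fold changes of -0.08 and -0.30. Pfkl and Pfkp gained 1.95 and 1.64 log2 units on Pfkm (exact permutation p = 0.0159, 0.025 over the 14 pairs), whereas the difference between Pfkl and Pfkp, 0.32, was not past the threshold (exact permutation p = 0.317). That last difference pools 0.92 at the papilloma stage and -0.36 at the tumor stage.

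Pfkfb3 and Pfkfb4 make and break fructose 2,6-bisphosphate, the strongest activator of phosphofructokinase, and both are known HIF targets. Pfkfb3 was 10.42 and 11.10 in papilloma skin, 10.96 and 11.08 in tumor skin, 12.82, 12.82 and 12.56 in papilloma, and 13.17 and 13.01 in tumor. It rose 3.93-fold (1.97 ± 0.20, adjusted p = 0.0015) and 4.2-fold (2.07 ± 0.22, adjusted p = 0.0023), and both of its probes had differences of 1.79 to 2.16 at both stages. Pfkfb4 was 9.53 to 10.39 in skin and 9.41 to 10.04 in lesions, with log2 fold changes of -0.21 (-0.69 to 0.27) and -0.44 (-0.97 to 0.09). The change of Pfkfb3 exceeded that of Pfkfb4 by 2.34 log2 units (exact permutation p = 0.0159, 0.025 over the 14 pairs).

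Aldolase splits the sugar into a pair of trioses. Aldoa, its main form outside liver and brain, was 16.22 to 16.70 in skin and 16.71 to 17.27 in lesions and rose 1.49-fold and 1.46-fold (adjusted p = 0.033 and 0.046). Aldoc, the brain form, was 10.13 and 10.24 in papilloma skin, 10.90 and 10.77 in tumor skin, 10.58, 10.85 and 10.51 in papilloma, and 12.51 and 12.62 in tumor. Only the tumor arrays stood apart from all others in this gene. It rose 3.32-fold in tumor against tumor skin (1.73 ± 0.15, adjusted p = 0.0012), and in papilloma the log2 fold change was 0.47 (adjusted p = 0.093). Tpi1, which interconverts the trioses, was 11.35 to 12.13 in skin and 13.43 to 14.13 in lesions and rose 4.59-fold and 4.85-fold (2.20 ± 0.21 and 2.28 ± 0.23, adjusted p = 0.00091 and 0.0018), the largest log2 fold changes among the members of upper and lower glycolysis.

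All 5 enzymes of lower glycolysis, from Gapdh to pyruvate kinase, rose in papilloma, and 3 rose in tumor. Pgam1, which moves the phosphate group on phosphoglycerate, rose 3.05-fold and 2.81-fold (adjusted p = 0.0017 and 0.0041), from 13.74 to 14.50 in skin to 15.36 to 16.00 in lesions. Pgk1, the first step that makes ATP, was 13.36 to 14.25 in skin and 14.73 to 15.40 in lesions and rose 2.47-fold and 2.26-fold (adjusted p = 0.0017 and 0.0044). Lesion arrays were above skin arrays for both genes. The single probe named Pgk1 has mm9 coordinates on chromosome 3 in the scanner files, whereas RefSeq has the gene on chromosome X, so its values rest on the name the array gives that probe.

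Gapdh, often used as a reference gene, was at 14.76 and 15.11 in papilloma skin, 15.84 and 15.59 in tumor skin, 15.96, 16.12 and 16.13 in papilloma, and 16.45 and 16.41 in tumor. It was therefore not level between these groups, and rose 2.19-fold in papilloma (1.13 ± 0.15, adjusted p = 0.0046) and 1.64-fold in tumor (0.71 ± 0.17, adjusted p = 0.034). All 8 of its probes were higher in papilloma, by 0.71 to 1.19, and 7 of 8 in tumor, although 2 of the 8 have coordinates on chromosomes 7 and 8 and the gene is on chromosome 6. Eno1 (enolase) rose 2.04-fold in papilloma (adjusted p = 0.007) and was 1.04-fold in tumor (log2 0.06, -0.34 to 0.45), where tumor skin was already at 15.77 and 16.10. Pkm2 (pyruvate kinase) rose 2-fold in papilloma (adjusted p = 0.0069) and had a log2 fold change of 0.57 in tumor (0.19 to 0.94, adjusted p = 0.065).

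**Figure D4:**
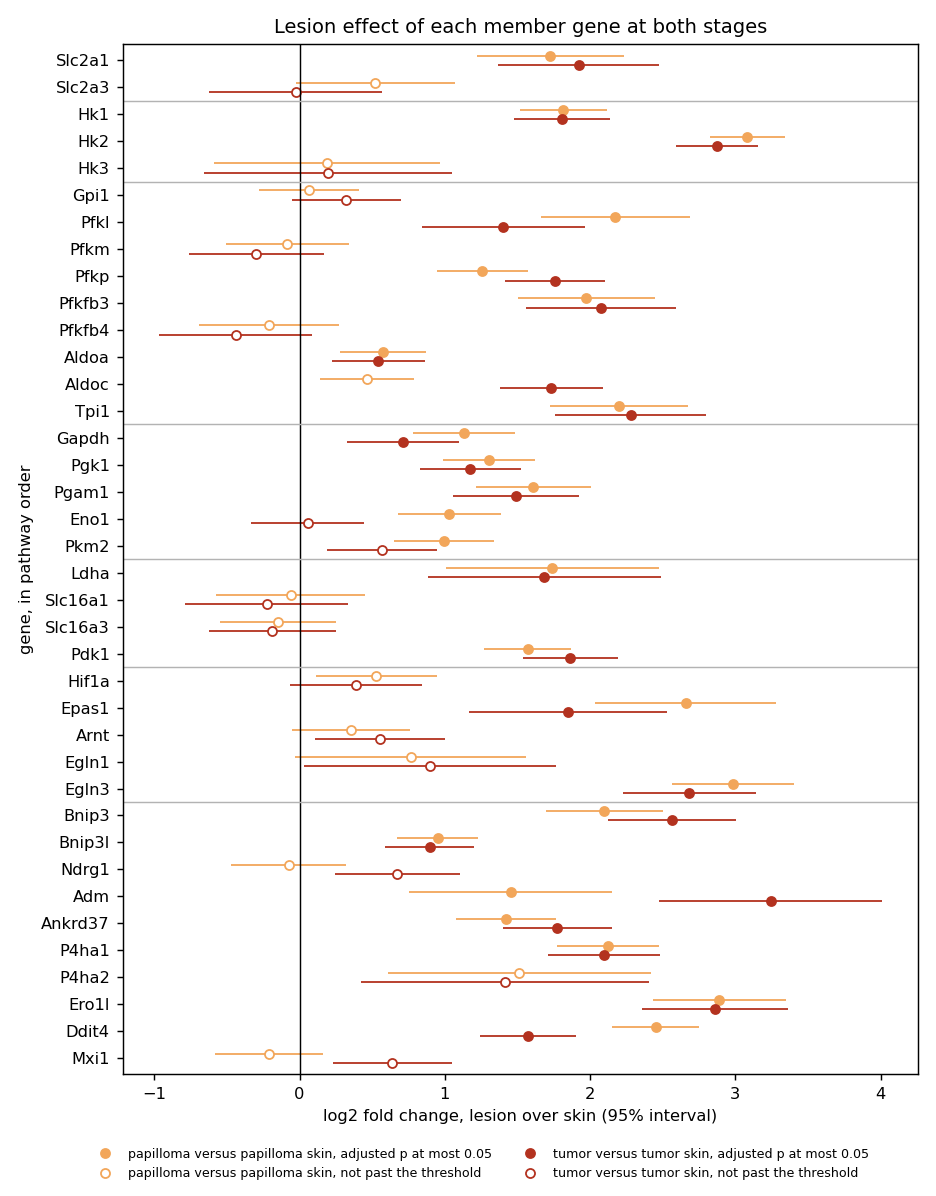
Log2 fold change of lesion over skin with its 95% interval for each of the 38 genes in pathway order, for papilloma against papilloma skin (orange) and tumor against tumor skin (red), with filled points past an adjusted p of 0.05 in limma. The intervals of most genes lie above 0 at both stages, and no filled point lies below 0.

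At the branch from pyruvate, Ldha (lactate dehydrogenase A) was 12.09 to 13.08 in skin and 13.52 to 14.30 in lesions and rose 3.34-fold (1.74 ± 0.32, adjusted p = 0.016) and 3.21-fold (1.68 ± 0.35, adjusted p = 0.023). Pdk1 is a kinase that inhibits pyruvate dehydrogenase in mitochondria, and a known HIF target. It was at 6.68 and 6.49 in papilloma skin, 6.55 and 6.70 in tumor skin, 8.14, 8.10 and 8.23 in papilloma, and 8.41 and 8.57 in tumor. It rose 2.97-fold (1.57 ± 0.13, adjusted p = 0.00055) and 3.64-fold (1.86 ± 0.14, adjusted p = 0.00064), with no overlap between skin and lesion. The lactate transporters gave another picture. Slc16a1 (MCT1) had log2 fold changes of -0.06 and -0.23 and Slc16a3 (MCT4), the exporter of glycolytic cells and a known HIF target, of -0.15 (-0.55 to 0.25) and -0.19 (-0.63 to 0.25). Slc16a3 was 16.40 to 16.86 in skin and 16.30 to 16.66 in lesions, and no spot was saturated on any array.

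Among the oxygen sensor genes, Egln3, a hydroxylase that HIF induces, was at 9.62 and 9.84 in papilloma skin, 10.73 and 10.27 in tumor skin, 12.54, 12.75 and 12.85 in papilloma, and 13.30 and 13.06 in tumor. It rose 7.9-fold in papilloma (2.98 ± 0.18, adjusted p = 0.00017) and 6.42-fold in tumor (2.68 ± 0.20, adjusted p = 0.00064), and skin and lesion arrays were well apart. Egln1, the main hydroxylase of normal oxygen levels, was 5.74 to 7.17 in skin and 6.30 to 7.73 in lesions, with log2 fold changes of 0.76 (-0.03 to 1.56) and 0.90 (0.03 to 1.76) that did not pass. Its single probe was not well above background on papilloma skin 2 and tumor skin 2. Egln3 gained 2.04 log2 units on Egln1 (exact permutation p = 0.0159, 0.025 over the 14 pairs).

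Hif1a was 9.56 to 9.96 in skin and 10.08 to 10.54 in lesions, a difference of 0.46 ± 0.13 over both stages with an adjusted p of 0.053, although each lesion array was above each skin array. Arnt behaved alike, at 0.45 ± 0.13 (adjusted p = 0.052). Epas1, the other alpha subunit, was at 8.98 and 8.35 in papilloma skin, 7.85 and 7.67 in tumor skin, 11.61, 11.22 and 11.14 in papilloma, and 9.24 and 9.96 in tumor. It rose 6.31-fold in papilloma (2.66 ± 0.27, adjusted p = 0.0013) and 3.59-fold in tumor (1.85 ± 0.30, adjusted p = 0.0092). Its 3 probes disagreed in direction, since the brightest had differences of -0.15 and -0.60 and the other probes 3.13 and 1.85, and 1.32 and 0.87. Epas1 is also strongly expressed in endothelial cells, and of 5 endothelial genes Cdh5 and Pecam1 rose in lesions. The summed level of that list was 11.53 to 12.18 in papilloma and 10.15 to 10.87 in the other groups, and its part in the Epas1 values was not tested.

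The HIF targets outside glycolysis held several of the largest changes. Ero1l, which helps form disulfide bonds in the endoplasmic reticulum, was 8.28 to 8.66 in skin and 11.16 to 11.66 in lesions and rose 7.41-fold (2.89 ± 0.20, adjusted p = 0.00024) and 7.27-fold (2.86 ± 0.22, adjusted p = 0.00064). Bnip3, a mediator of mitochondrial clearance and cell death, was at 12.15 and 12.14 in papilloma skin, 12.85 and 12.43 in tumor skin, 14.04, 14.43 and 14.26 in papilloma, and 15.30 and 15.09 in tumor. It rose 4.28-fold (2.10 ± 0.17, adjusted p = 0.00057) and 5.9-fold (2.56 ± 0.19, adjusted p = 0.00064). The arrays fell in separate ranges, with papilloma between skin and tumor. Its relative Bnip3l rose 1.93-fold and 1.86-fold (adjusted p = 0.0036 and 0.0071), 1.36 log2 units less than Bnip3 (exact permutation p = 0.0159, 0.025 over the 14 pairs).

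P4ha1, a subunit of collagen prolyl hydroxylase, was 7.09 to 7.42 in skin and 9.09 to 9.39 in lesions and rose 4.35-fold and 4.27-fold (adjusted p = 0.0003 and 0.00075). Ddit4 (REDD1), an inhibitor of mTOR signaling, rose 5.46-fold in papilloma (2.45 ± 0.13, adjusted p = 0.00011) and 2.97-fold in tumor (1.57 ± 0.14, adjusted p = 0.0013), from 12.18 to 12.89 in skin to 14.30 to 14.78 in lesions. Adm (adrenomedullin), a peptide that widens vessels, was at 6.82 and 6.37 in papilloma skin, 5.98 and 6.23 in tumor skin, 8.18, 8.15 and 7.82 in papilloma, and 8.81 and 9.89 in tumor. Lesions and skin did not overlap, and the rise was 2.74-fold in papilloma (1.45 ± 0.30, adjusted p = 0.026) and 9.47-fold in tumor (3.24 ± 0.33, adjusted p = 0.0019). Its probe was not well above background on tumor skin 2.

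Ankrd37, a small HIF target of little known function, was 10.57 to 11.24 in skin and 11.83 to 13.04 in lesions and rose 2.68-fold and 3.42-fold (adjusted p = 0.0016 and 0.0014). P4ha2 had log2 fold changes of 1.51 and 1.41 that did not pass at either stage (adjusted p = 0.058 and 0.076) and 1.46 ± 0.29 over both (adjusted p = 0.013), and its probe too was below the background limit on tumor skin 2. Ndrg1 and Mxi1 did not pass in any lesion comparison, with log2 fold changes of 0.30 and 0.21 over both stages.

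HIF binds the core motif ACGTG or GCGTG, so the bases upstream of the members' start sites were searched for these 5 letters on both strands, with overlapping matches counted as 1 site. RefSeq promoter windows of GRCm38.p6 were at hand for 34 of 38 members, and not for Slc2a3, Epas1, Bnip3l and Ndrg1. In the 250 bases before a start site, 32 of the 34 had at least 1 site in some window, against 41.5% of the 27025 genes in the table. Both motifs hold a CG pair, and the median content of G and C was 62.8% in the members' windows and 52.4% in all windows. Sites were found for 23 of 24 members that rose in lesions and for 9 of 10 that did not pass, so the motif did not part them. The windows that follow are written 5′ to 3′ on the strand of the gene with the sites in capitals, and come from 2 family pairs in which 1 member rose and the other did not pass, and 3 HIF targets that rose at both stages.

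Hk2, which rose, chr6:82774455-82774704, minus strand, 2 sites: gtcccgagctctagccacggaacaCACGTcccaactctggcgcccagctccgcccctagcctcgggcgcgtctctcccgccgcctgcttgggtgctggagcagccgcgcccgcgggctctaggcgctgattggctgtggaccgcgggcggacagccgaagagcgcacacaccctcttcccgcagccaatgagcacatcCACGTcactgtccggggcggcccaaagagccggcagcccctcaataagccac
Hk3, which did not pass, chr13:55021386-55021635, minus strand, 1 site: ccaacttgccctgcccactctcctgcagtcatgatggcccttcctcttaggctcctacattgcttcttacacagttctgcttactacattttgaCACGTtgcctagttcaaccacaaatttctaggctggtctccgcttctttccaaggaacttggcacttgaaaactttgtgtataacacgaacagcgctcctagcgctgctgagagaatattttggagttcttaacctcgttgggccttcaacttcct
Pfkfb3, which rose, chr2:11502091-11502340, minus strand, 2 sites: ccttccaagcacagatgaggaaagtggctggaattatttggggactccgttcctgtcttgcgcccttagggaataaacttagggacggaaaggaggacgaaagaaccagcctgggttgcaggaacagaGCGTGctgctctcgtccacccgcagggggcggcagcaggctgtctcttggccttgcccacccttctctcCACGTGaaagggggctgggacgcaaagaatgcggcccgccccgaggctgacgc
Pfkfb4, which did not pass, chr9:108991652-108991901, plus strand, 1 site: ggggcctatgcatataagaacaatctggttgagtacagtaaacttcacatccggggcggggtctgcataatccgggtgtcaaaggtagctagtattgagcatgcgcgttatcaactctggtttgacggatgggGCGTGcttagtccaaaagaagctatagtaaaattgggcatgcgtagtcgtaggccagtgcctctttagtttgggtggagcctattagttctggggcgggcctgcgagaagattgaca
Ero1l, which rose, chr14:45318573-45318822, minus strand, 3 sites: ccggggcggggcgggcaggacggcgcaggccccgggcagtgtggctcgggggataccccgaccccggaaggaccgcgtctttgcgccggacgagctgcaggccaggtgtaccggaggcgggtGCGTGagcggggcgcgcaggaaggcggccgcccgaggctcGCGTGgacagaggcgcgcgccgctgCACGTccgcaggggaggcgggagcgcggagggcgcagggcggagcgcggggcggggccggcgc
Bnip3, which rose, chr7:138909507-138909756, minus strand, 4 sites: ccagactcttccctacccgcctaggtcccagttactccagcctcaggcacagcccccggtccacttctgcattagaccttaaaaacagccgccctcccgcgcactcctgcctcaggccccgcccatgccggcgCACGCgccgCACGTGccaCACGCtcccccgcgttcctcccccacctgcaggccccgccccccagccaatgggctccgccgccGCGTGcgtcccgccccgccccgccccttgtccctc
Ankrd37, which rose, chr8:45999851-46000100, minus strand, 3 sites: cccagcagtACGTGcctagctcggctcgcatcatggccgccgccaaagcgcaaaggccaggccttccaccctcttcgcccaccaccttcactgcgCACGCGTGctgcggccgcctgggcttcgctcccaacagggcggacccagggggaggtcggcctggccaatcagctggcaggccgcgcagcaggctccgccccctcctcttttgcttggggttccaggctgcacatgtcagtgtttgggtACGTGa

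The Bnip3 window held the most sites of the 7, and Hk3 and Pfkfb4 held 1 each. The 7 windows are examples, and other pairs of this kind, such as Egln3 and Egln1, are not shown. Their site numbers do not stand for the members as a whole, where 23 of 24 that rose and 9 of 10 others had a site. Pfkfb3 has a further window at another start site, chr2:11553930-11554179, which is not shown and held 1. These matches describe letters only, and no binding was measured.

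Between the lesions, tumor against papilloma, 3 members rose and 1 fell, against 0.305% and 0.678% of all genes, and the median over the members was 0.26. Aldoc rose 3.78-fold (1.92 ± 0.14, adjusted p = 0.0023), Ankrd37 1.9-fold (0.93 ± 0.15, adjusted p = 0.035) and Gpi1 1.84-fold (0.88 ± 0.15, adjusted p = 0.042). Epas1 fell by 1.72 log2 units (± 0.27, adjusted p = 0.032). Bnip3 had a difference of 0.95 ± 0.17 (adjusted p = 0.053) and Adm of 1.30 ± 0.30 (adjusted p = 0.11), with both tumor arrays above all papilloma arrays in each. Across the members, 19 of 38 were higher on both tumor arrays than on all papilloma arrays, an order that 18.9% of all genes had.

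These 4 calls depended on the processing. None of them passed without the columns papilloma skin 1 and tumor 1, with slide as a term, or from the scanner files, where 0.0203% of all genes fell, none rose and 4 members had an unadjusted p of at most 0.05 in limma after ComBat, against 19.8% of all genes. No gene at all passed without those columns or with slide as a term. Without those columns the log2 differences were 1.98 for Aldoc, 0.86 for Ankrd37, 0.86 for Gpi1 and -1.36 for Epas1, and on the 6 arrays of full spike-in range they were 1.91, 0.70, 0.84 and -1.40. After 75th percentile scaling and ComBat of the scanner values only 3 of the 4 kept their sign, and Ankrd37 was lower in tumor. Centring on the 75th percentile and the brightest probe per gene each kept 3 of the 4 calls, and both filters on dim genes or probes kept 4. Leaving out any papilloma or tumor array left 1 call. In the first slide, tumor 1 was above papilloma 1 in 31 of 38 members, and in the second, tumor 2 was above papilloma 2 in 24 of 38. The red blood cell genes given above also moved with this comparison, and the array does not tell their RNA from that of neutrophils. Their part in the result was not tested.

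**Figure D5:**
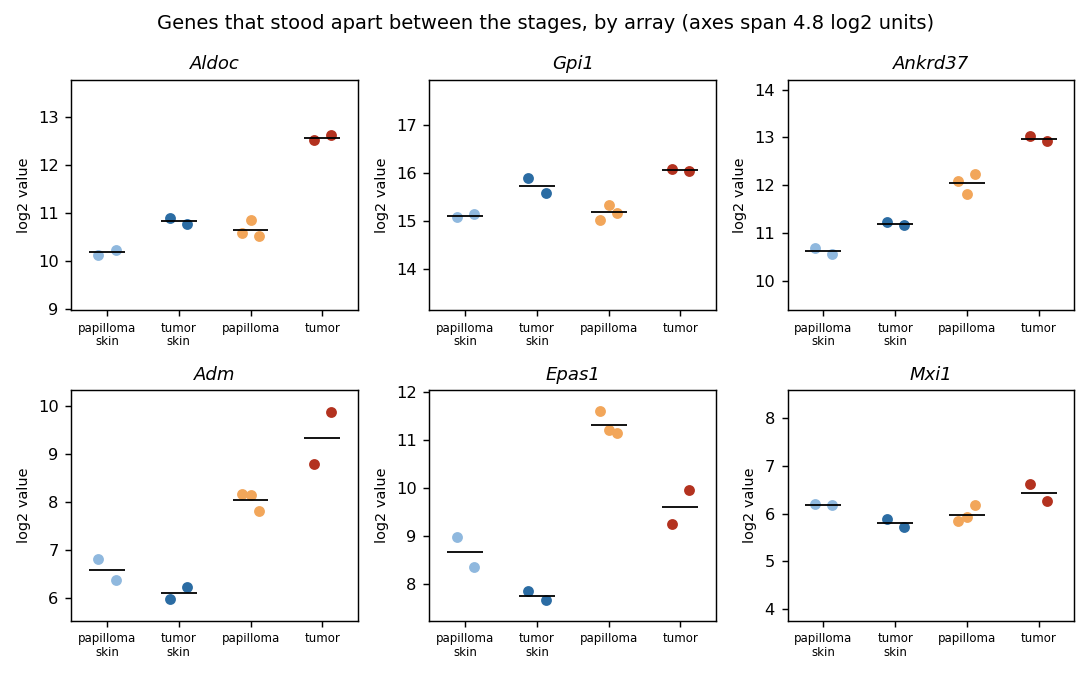
Log2 value on each array (points) and group mean (bars) of 6 genes, the 4 that passed between tumor and papilloma together with Adm and Mxi1, with 2 arrays for papilloma skin, tumor skin and tumor and 3 for papilloma. Aldoc is at 12.51 and 12.62 in tumor and 10.13 to 10.90 elsewhere, and Epas1 is highest in papilloma.

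Neither of the other comparisons had a member past the threshold. Tumor skin against papilloma skin had a median of 0.31 over the members, with 16 members higher and 1 lower at an unadjusted p of at most 0.05 in limma, against 11% and 11.3% of all genes, led by Eno1 at 0.93 ± 0.17 (adjusted p = 0.054) and Gapdh at 0.78 ± 0.17 (adjusted p = 0.072). Of all genes, 0.581% rose and 0.399% fell here. For no member did the 2 lesion effects differ past the threshold, with 8 at an unadjusted p of at most 0.05 against 14.1% of all genes, and 0.0316% and 0.0862% of all genes called. Its largest values were Adm at 1.79 ± 0.45 (adjusted p = 0.18), Aldoc at 1.27 ± 0.21 (adjusted p = 0.082), Eno1 at -0.98 ± 0.23 (adjusted p = 0.16) and Ddit4 at -0.88 ± 0.19 (adjusted p = 0.15). That the fold changes of Adm or Aldoc differ between papilloma and tumor is therefore not shown by these arrays.

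Within a slide a group had 1 array, so only signs could be compared there. The members were called on these same arrays, so an equal sign was close to given and is no separate check. In slide 1, which held the columns papilloma skin 1 and tumor 1, all 24 members called in papilloma and all 23 called in tumor had the same sign, with medians over the 38 of 1.23 and 1.11. In slide 2 all 24 called in papilloma had the same sign again, with a median of 1.31. Slide 3 held no lesion with its own skin.

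Other genes of the same pathways were read from lists chosen by function. Of 23 further genes of the HIF pathway and its targets, 13 rose in lesions of both stages and none fell, with a median of 0.73, where 9.84% of all genes rose and 6.49% fell. Nos2, the inducible nitric oxide synthase, rose 7.21-fold (2.85 ± 0.14), the mitochondrial protein gene Fam162a 6.01-fold (2.59 ± 0.11) and the histone demethylase gene Kdm3a 4.25-fold (2.09 ± 0.10). Of 17 further isoenzymes of glycolysis 2 rose and 3 fell, and 2 of 17 is near the 9.84% of all genes that rose. Eno2, the neuronal enolase and a known HIF target, rose 6.34-fold from 6.92 ± 0.17 (SD, n = 2) in papilloma skin and 6.68 ± 0.44 (n = 2) in tumor skin to 9.44 ± 0.26 (n = 3) in papilloma and 9.49 ± 0.79 (n = 2) in tumor. Bpgm, the other gene of this list that rose, had a change of 1.09 (± 0.26) over both stages. Its mean went from 7.98 on skin arrays to 10.59 on lesion arrays at the tumor stage. At the papilloma stage the Bpgm means were 8.33 and 7.89. The summed level of the red blood cell genes was also highest in tumor, and their part in the Bpgm values was not tested. The transporter Slc2a6 fell by 1.39 log2 units, Ldhc by 0.63 and Eno3 by 0.38.

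The pentose phosphate pathway branches off at glucose 6-phosphate and makes the NADPH that the neutrophil oxidase uses. Of 8 of its genes 5 fell and 1 rose in lesions of both stages, with a median of -0.77, against the same 6.49% and 9.84% of all genes. G6pdx, the entry enzyme, had means of 13.46 in papilloma skin and 14.78 in tumor skin against 11.99 in papilloma and 12.09 in tumor, and fell by 2.08 log2 units (± 0.17). Taldo1 (transaldolase) fell by 1.26 and Tkt (transketolase) by 1.12, while Rpe rose by 0.57. From the scanner files after ComBat, 4 of the 8 fell and none rose, where 2.53% of all genes fell and 5.46% rose.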

How the data were processed

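Gr-1bright neutrophils of 4 groups were measured on 9 one-color Agilent mouse arrays. Each probe has 1 log2 value per array in the table that the authors deposited. Per their methods, arrays were quantile normalized with limma and ComBat took out chip effects, but which steps the table holds is not stated. The authors also deposited scanner output with fluorescence intensity per spot, background-subtracted by Feature Extraction and not scaled between arrays. Groups came from the sample labels. Per the methods, the arrays of a group are biological replicates from separate experiments on pooled mice, so p-values measure the spread between such pools. Which skin and lesion pools share mice is not given in the sources used here.

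Control spots were left out, and a gene was the median over the probes with its name. Group means were fitted with limma 3.58.1 in R 4.3.3 over 34797 genes with 5 residual degrees of freedom, and p-values were adjusted by Benjamini-Hochberg over all genes. The number of arrays limits the precision. The comparisons were papilloma and tumor each against its skin, both together, tumor against papilloma, the skins against each other, and the difference between the lesion effects. Exact permutation tests compared pairs of genes. In a second route, scanner intensities were log2 transformed, quantile normalized and adjusted for slide with ComBat, in an implementation written for this purpose. Fits were tested on simulated data, where limma after ComBat called unchanged genes too.

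The members, gene lists and tests were chosen with earlier results of these data known. Named are all 38 members, of each further list up to 3 genes per direction past the threshold with the largest change in lesions of both stages, and marker genes where their level stands beside a result. The 14 alternatives fixed beforehand and the omission of each array concern the table columns, normalization, slide, replicate number, filters on level and dim probes, the choice of probe and the study's thresholds. Promoter sequences are RefSeq's for GRCm38.p6. Python 3.11.15, pandas 2.3.3, numpy 2.4.6, scipy 1.17.1 and matplotlib 3.10.9 were used.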

Additional observations from a re-analysis of the deposited data

Results flagged for a closer look

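Mxi1, a repressor of Myc targets and a known target of HIF, lay on opposite sides of its skin control at the 2 stages. It was at 6.20 and 6.17 in papilloma skin and 5.84, 5.92 and 6.17 in papilloma, each papilloma array being lower before rounding, and at 5.88 and 5.71 in tumor skin and 6.62 and 6.25 in tumor. That every array of a stage lay on 1 side was read from the arrays and not tested. The difference between the lesion effects was 0.85 ± 0.24 (SE), with an adjusted p of 0.2 in limma, which did not pass. Its probe was not well above background on tumor skin 2 and papilloma 1. With groups of 2 and 3 arrays, no array was tested as an outlier.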

How the results depend on the processing

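The members' median was above 0 in each comparison of lesion with skin under each alternative, while the number of calls depended on how slides and arrays were handled. Leaving out each array in turn gave 19 to 24 calls in papilloma against its skin (medians 1.20 to 1.31), 17 to 22 in tumor against its skin (1.16 to 1.52), 25 to 27 in lesions of both stages (1.18 to 1.38), 1 to 4 in tumor against papilloma (0.19 to 0.38), and 0 to 0 between the skins (0.27 to 0.46) and for the difference between the lesion effects (-0.067 to 0.014). In tumor against papilloma 2 calls were left without either papilloma skin array and 1 without any of the papilloma or tumor arrays. An arm left with 1 array was assumed to vary like the others. The share of all genes called without an array is not given here, so the counts above have no background beside them.

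In the order papilloma stage, tumor stage, both stages, tumor against papilloma, skins and difference between the lesion effects, the medians from the scanner files were 1.90, 0.92, 1.21, 0.075, 0.82 and -0.69 after quantile normalization and ComBat, 1.91, 0.88, 1.20, 0.074, 0.85 and -0.76 with slide as a term, 1.85, 1.14, 1.25, 0.14, 0.68 and -0.53 with the slide effect left in, 2.28, 0.73, 1.54, -0.33, 1.42 and -1.82 after 75th percentile scaling and ComBat, and 1.48, 0.93, 1.14, 0.097, 0.68 and -0.56 after normexp, quantile normalization and ComBat. After the 75th percentile scaling and ComBat the median of all genes was -0.36, -0.05, -0.28, 0.27, -0.01 and 0.30. On the 6 arrays of full spike-in range the medians were 1.46, 1.77, 1.64, 0.32, -0.0021 and 0.29.

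In tumor against tumor skin, calls from the scanner files were 4 after ComBat, 1 after 75th percentile scaling and ComBat and 13 after normexp and ComBat, and 12 from the table with slide as a term. At an unadjusted p of at most 0.05 in limma the same fits had 20, 15, 26 and 26 members. Of all genes 16.5%, 14.2%, 18.1% and 18.2% passed there. From the scanner files, no member was called in the papilloma stage, the tumor stage, both stages or between tumor and papilloma with slide as a term or with the slide effect left in. Counts at an unadjusted p of at most 0.05 in limma follow in that order, each with the share of all genes. With slide as a term 20, 9, 20 and 1 members passed, against 11.9%, 2.45%, 8.27% and 3.56%. With the slide effect left in, 20, 12, 24 and 1 passed, against 9.66%, 3.25%, 8.64% and 2.62%. Between tumor and papilloma these counts were near the share of all genes. Between tumor and papilloma, 0 calls were left without the columns papilloma skin 1 and tumor 1, with slide as a term in the table and in each fit of the scanner files, and 2 at the study's thresholds. Centring the table on the 75th percentile gave 1 call between the skins. With the probe of highest mean level the medians were 1.01, 1.05, 1.04 and, between the skins, 0.44, and the log2 fold change turned to -0.22 for Hk1 in papilloma and to -0.15, -0.60 and -0.38 for Epas1 in papilloma, tumor and both stages, since that probe moved unlike the others. After 75th percentile scaling, Aldoa turned to -0.51 in tumor against its skin and Ankrd37 to -0.27 in tumor against papilloma, and the cause was not tested.

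With the replicate number as a block, 16, 17 and 23 members were called in the papilloma stage, the tumor stage and both stages, and 0 between tumor and papilloma. At an unadjusted p of at most 0.05 in limma the counts were 27, 27, 29 and 11. Of all genes 13.8%, 19.9%, 22.4% and 8.08% passed there. Neither the labels nor the methods say that a number marks shared mice. Deviations from the group means under the same number correlated at 0.14 and 0.43 for papilloma with its skin and 0.31 for tumor with its skin. They correlated at -0.10 between the skins, -0.41 and -0.074 between papilloma and tumor, -0.93 and -0.69 between tumor skin and papilloma, and -0.59 between papilloma skin and tumor. Papilloma 3, whose number no skin array shares, had 0.40 with papilloma skin 1 and -0.40 with papilloma skin 2. In a group of 2 arrays the deviations mirror each other. Pairing was thus not established and is not excluded for a lesion with its own skin. With the numbers of papilloma skin crossed, chosen after seeing the data, 19, 20, 25 and 0 were called. At the unadjusted threshold the counts were 27, 28, 29 and 12, against 15%, 21.5%, 24% and 8.82% of all genes. The pools limit precision, and dim probes such as those of Egln1, Adm, P4ha2 and Mxi1 have less signal over background.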

Other observations

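Glycogen and mitochondrial genes next to glycolysis were read from lists chosen by function. Of 10 genes of glycogen handling, 4 rose and 2 fell in lesions of both stages. Pgm2, which links glycogen to glucose 6-phosphate, rose by 1.99 log2 units (± 0.10 SE), the glycogen synthase gene Gys1 by 1.98 (± 0.11) and the branching enzyme gene Gbe1 by 1.54 (± 0.16), while Gyg, the primer of glycogen, fell by 0.62 and the phosphorylase gene Pygl fell by 0.51. Of all genes in that comparison 9.84% rose and 6.49% fell. From the scanner files after ComBat the counts were again 4 and 2, against 5.46% and 2.53% of all genes.

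Of 23 genes of pyruvate entry and the citric acid cycle 1 rose and 5 fell, with a median of -0.19, against the same 9.84% and 6.49%. Mdh2 rose by 0.61 (± 0.14), and Pdk4, Pdk2 and the pyruvate carrier gene Brp44 fell by 0.74, 0.68 and 0.54. The Pdk4 value came from the papilloma stage, where the mean went from 7.29 on skin arrays to 5.79 on lesion arrays. At the tumor stage the Pdk4 means were 5.82 and 5.84, so no fall was seen there. From the scanner files after ComBat none of the 23 was called. Of 7 genes of gluconeogenesis none was called in lesions of both stages by limma, in the table or in the scanner files after ComBat, with 1 and 0 at an unadjusted p of at most 0.05.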
